A study of Mus musculus with 6 samples.

Results

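The colony-stimulating factors (CSFs) and their receptors were followed as 8 genes of the 54532 in the deposited expression table, picked by gene symbol with no threshold on measured values, though with earlier results of these data known. They comprise 3 ligands (Csf1, Csf2 and Csf3) and 5 receptor genes (Csf1r, Csf2ra, Csf2rb, Csf2rb2 and Csf3r). The libraries came from bone-marrow-derived macrophages (BMDMs) of C57BL/6 mice, grown for 6 days in medium of which 33% had been conditioned by L929 cells, according to the labels (the study's methods give a lower share), and replated about 16 h before stimulation. The study asked what metformin does to the early response to lipopolysaccharide (LPS), a bacterial cell wall component sensed by TLR4. Of the 3 groups, the untreated cells (Untr) received neither agent, the LPS cells received 100 ng/ml LPS for 2 h, and the Met + LPS cells were exposed to the same LPS dose and time after 6 h with metformin at 5 mM. Each group had 2 libraries of poly-A RNA, with 25457016 to 30762754 reads on genes per library. No group received metformin alone, so every value for metformin was measured in the presence of LPS.

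CSF1 (M-CSF) keeps macrophages alive through the receptor tyrosine kinase CSF1R, and L929 cells are used in these cultures because they secrete it. CSF2 (GM-CSF) binds a receptor made of an alpha chain, encoded by Csf2ra, and a common beta chain, encoded by Csf2rb, which is shared with the IL-3 and IL-5 receptors. Mice carry a neighbouring second beta chain gene, Csf2rb2, whose product serves the IL-3 receptor, while CSF3 (G-CSF) acts through CSF3R, best known from neutrophils and their precursors. The conditioned medium supplied CSF1 protein to all 3 groups, and its amount was not measured. Poly-A RNA does not report on receptor protein at the cell surface, and in bulk RNA fewer cells of a type and less RNA per cell cannot be told apart.

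Shown are the region before the Csf1 start, the AU-rich stretch of Csf2 and the most divergent gap-free coding stretch of both beta chain genes. The first shows the 250 bases upstream of the RefSeq start of Csf1 (GRCm38.p6, chr3:107760470-107760719, minus strand), because Csf1 had the higher TPM of the 2 ligands that rose with LPS. Capitals mark a match to the kappaB decamer, the consensus bound by NF-kappaB, at positions -154 to -145.
Csf1: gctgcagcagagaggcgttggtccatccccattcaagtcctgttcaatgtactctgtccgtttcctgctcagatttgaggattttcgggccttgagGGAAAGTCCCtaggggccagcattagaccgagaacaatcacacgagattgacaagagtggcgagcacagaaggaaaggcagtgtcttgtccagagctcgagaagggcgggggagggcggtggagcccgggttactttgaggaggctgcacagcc
The decamer was found in 11.2% of the 32851 RefSeq promoter windows of 300 bases (250 before and 50 after a start, both strands searched, with a pattern that is its own reverse complement). Such windows were matched for 5 of the 8 members, and those of Csf1 and Csf3r each held 1 such decamer while those of Csf2, Csf2ra and Csf2rb2 held none. The RefSeq start of Csf2 lies 232 bases upstream of the gene start in the deposited table, so its window may miss the region before the start used here. Of the other motifs searched on both strands in the 5 windows, GAGGAA (in 28.3% of all windows) occurred at 1 place for Csf3r, 2 for Csf2ra and 2 for Csf2rb2, and TGACGT (7.51%) occurred for Csf2ra at 2 overlapping places. The RefSeq start of Csf3r (chr4:126024659) lies downstream of its gene start in the deposited table (126024550). Its GAGGAA, at positions -86 to -81, thus lies inside the gene as bounded there. TGANTCA (7.81%) and TATAAA (13.6%) were found in none of the 5, which says only that these letters are not in these windows.

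The 3′ end of the Csf2 message holds the AU-rich element for which this transcript is known, a signal read by proteins that shorten or prolong the life of cytokine messages. The 30 bases with the most ATTTA pentamers (chr11:54247329-54247358, GRCm38, minus strand, in the 3′ UTR) are shown with 5 overlapping copies in capitals.
Csf2: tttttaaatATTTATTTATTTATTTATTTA
In the GENCODE M21 transcript with the longest coding sequence, the 317 bases after the Csf2 stop codon held 9 ATTTA pentamers, read on the transcript strand. The 669 bases of Csf3 held 6, the 2111 bases of Csf1 held 4 and the 1669 bases of Csf1r held 3, while Csf2ra, Csf2rb, Csf2rb2 and Csf3r held none. Among 19200 protein-coding genes with a 3′ region of at least 100 bases, the median was 1.30 pentamers per 1000 bases. Of these genes, 0.0417% reached the density of Csf2, 1.34% that of Csf3 and 38.6% that of Csf1.

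Csf2rb and Csf2rb2 lie side by side on opposite strands of chromosome 15, and 2503 of 2628 aligned coding positions were identical (95.2%), with a longest identical run of 242 bases. Among stretches of 60 coding bases aligned without a gap, the one that differs most between them carries 13 differences, in capitals below. It is one exonic block in each gene (chr15:78338893-78338952, plus strand, for Csf2rb and chr15:78294379-78294438, minus strand, for Csf2rb2, GRCm38).
Csf2rb: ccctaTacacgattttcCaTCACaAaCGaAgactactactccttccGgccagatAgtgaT
Csf2rb2: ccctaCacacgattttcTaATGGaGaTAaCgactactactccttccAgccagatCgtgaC
Of all 31-base words in the exons, 80.3% of those of Csf2rb and 69.9% of those of Csf2rb2 occurred in no other annotated gene, and the 2 genes shared 1369 words. How the counting treated reads that match both is not stated, so the values of the 2 genes are uncertain to that extent. The other members with shared words were Csf3r (76.9% in no other gene), Csf1r (85.1%), Csf2 (90.8%) and Csf2ra (99.6%). Csf3r shared 728 words with AC105061.2, a gene name absent from the deposited table. Exons of Csf1r and Csf2 overlap Hmgxb3 and Gm12223 on the other strand, respectively, and without a stated strand setting, reads of such partners cannot be told apart. Gm12223 was at 0 TPM in the untreated and LPS libraries and at 0.251 and 0.428 TPM in the Met + LPS libraries, while Hmgxb3 lay between 24.2 and 28.9 TPM.

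The labelled cell type was checked with marker genes. All 8 macrophage markers were measured in every library, with a summed level of 44621 to 46599 TPM in untreated cells, 37412 to 37903 TPM after LPS and 30877 to 30948 TPM after Met + LPS, most of it Lyz2. Neutrophil markers summed to 30.2 to 32.9, 26.7 to 28.2 and 43.6 to 45.9 TPM in the same order, and Ly6g was at 0 TPM in 5 of 6 libraries. Of the 6 mast cell and basophil markers, Fcer1a, Mcpt4 and Tpsb2 were at 0 TPM in all libraries, and nearly all of the summed 8.18 to 24.4 TPM was Kit. Markers of T and NK cells (3.03 to 7.05 TPM, mostly Cd4, with Cd3g at 0 TPM throughout), dendritic cells (0.703 to 2.80 TPM), fibroblasts (0.494 to 1.35 TPM) and B cells (0.0550 to 0.515 TPM) were low in every library. Csf1r is itself 1 of the 8 macrophage markers, and what part a change in these lists had in the values of the other members was not tested.

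In untreated BMDMs the receptor genes were far more abundant than the ligands. Values are TPM, a gene's share of all transcripts in its library after scaling for gene length. Levels of different genes can be set side by side only as far as these lengths and the handling of shared reads allow. For Csf2rb the length was 7277 bases with retained introns, against 4900 for its transcript with the longest coding sequence. Csf1r led with 1891 ± 73.9 TPM (mean ± SD, n = 2), followed by Csf2rb2 (468 ± 2.66), Csf2ra (372 ± 14.6), Csf2rb (204 ± 2.36), Csf3r (44.8 ± 0.189) and Csf1 (7.83 ± 0.293). No untreated library of one gene overlapped that of the next in this order, which covers the spread between libraries but not the choice of length. Csf1r held rank 55 and 53 by TPM among all genes of the 2 untreated libraries, and Csf1 rank 8605 and 8515. Csf2 and Csf3 were at 0 TPM in both untreated libraries. After LPS the order changed: Csf1 stood at 192 TPM, above Csf2rb at 106, and the libraries of Csf2rb2 (275 and 267 TPM) and Csf2ra (243 and 270 TPM) overlapped.

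**Figure D1:**
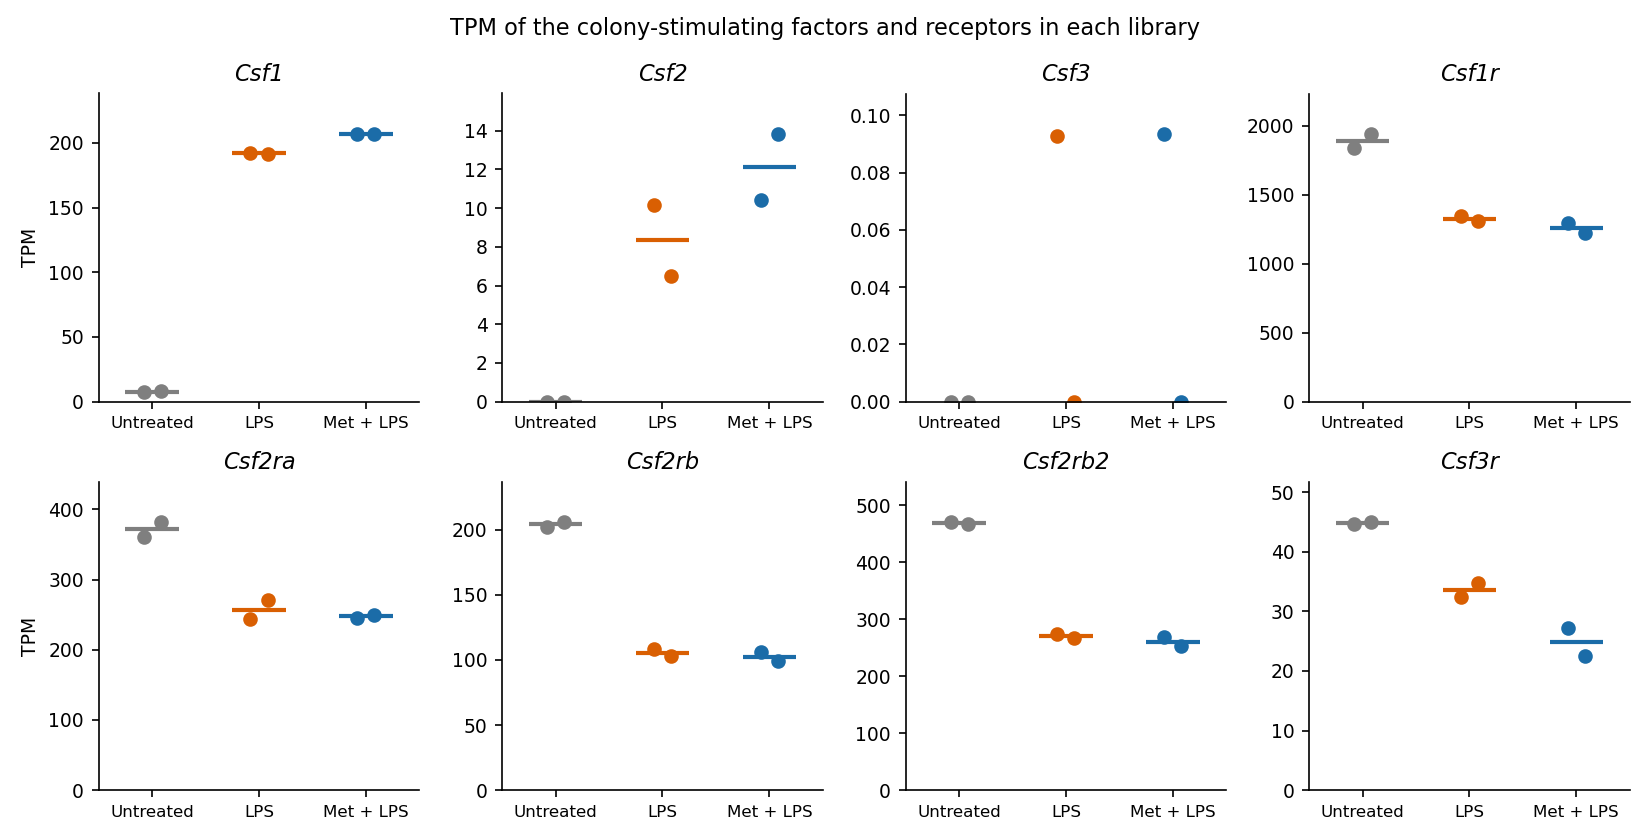
TPM of each member (vertical axes, each from 0 with its own range) in the 2 libraries of the untreated, LPS and Met + LPS groups; points are libraries and horizontal lines are group means, left out for Csf3. Csf1 sits near 8 TPM without LPS and at 192 to 207 TPM with it, Csf2 leaves 0, all 5 receptors sit lower with LPS, and Csf3r is lowest in the 2 Met + LPS libraries.

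The first comparison, LPS vs. untreated, gives the baseline response at 2 h. The ligands Csf1 and Csf2 rose, Csf3 stayed at or below 1 read per library, and the TPM of all 5 receptor genes fell by less than 1 log2 unit. Differences were tested with limma on log2(TPM + 1) over the 12755 genes that reached 1 TPM in 2 or more libraries, and an adjusted p (Benjamini-Hochberg) under 0.01 was required. Where a log2 fold change of 2 or more in size was required as well, 2 of the 7 tested members passed, both higher, beside 3.72% of all tested genes that passed as higher, 2.37% as lower and 6.08% in either direction. Of these 2, Csf2 entered the test only through the libraries with LPS, so that it passed follows in part from being tested. At any fold change all 7 tested members passed, 2 as higher and 5 as lower, against a background of 76.3% of tested genes (16.2% higher and 60.1% lower). Passing at any fold change was therefore common, and the median log2 fold change of all tested genes was -0.48, which dropped to -0.01 when libraries were rescaled by the median ratio across genes. After rescaling, 30.6% of tested genes passed as higher and 27.6% as lower at any fold change, and past the cut-off of 2 the split went from 474 higher and 302 lower to 663 and 129. Receptor values are therefore read against that shift. Nothing in the labels says that the 2 libraries of a group came from separate mice, and the methods say only that cells were seeded in duplicate, so the p-values measure the spread between these samples, which may be technical. An exact permutation test of 2 libraries against 2 cannot give a two-sided p below 0.333, so no such test is given.

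Csf1 (ENSMUSG00000014599, chr3:107741048-107760469, minus strand, GRCm38) encodes the growth factor that the conditioned medium also provides. Its level was 7.62 and 8.04 TPM in the untreated libraries and 192 TPM in both LPS libraries, with 306, 304, 7738 and 7382 reads behind these values. The groups were far apart and replicates differed by little. The log2 fold change was 4.45 (SE 0.04, limma adjusted p = 2.2e-09), a 21.9-fold higher TPM + 1, and 99.2% of tested genes had a lower fold change. After rescaling it was 4.93. Csf1 moved from rank 8605 and 8515 to rank 794 and 799 among all genes.

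Csf2 (ENSMUSG00000018916, chr11:54247271-54249667, minus strand) encodes GM-CSF, a growth factor for granulocytes and macrophages that also activates mature cells. It was at 0 TPM in both untreated libraries and at 10.2 and 6.51 TPM in the LPS libraries, or 62 and 38 reads. The exact 95% Poisson intervals were 47.5 to 79.5 and 26.9 to 52.2 reads, and for a count of 0 a floor of 3 reads is used throughout. Intervals and floors cover counting error only, since reads without molecular identifiers need not be independent molecules. Set against that floor of 3 reads per library (0.508 TPM over the untreated group), the mean of the LPS libraries was at least 16.4-fold higher. The fitted log2 fold change of 3.20 (SE 0.21, limma adjusted p = 1.2e-05) depends on the pseudocount of 1 TPM. Csf2 passed the filter on low values only through the libraries with LPS, so that it differed follows in part from being tested.

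Csf3 (ENSMUSG00000038067, chr11:98701263-98703629, plus strand) encodes G-CSF, the main growth factor for neutrophils. A single read was recovered in the first LPS library (0.0930 TPM) and a single read in the first Met + LPS library (0.0936 TPM), with 0 in the other 4. At this depth no difference was detectable, and Csf3 did not enter the test. The same floor of 3 reads corresponds to 0.240 to 0.296 TPM of Csf3 in these libraries.

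**Figure D2:**
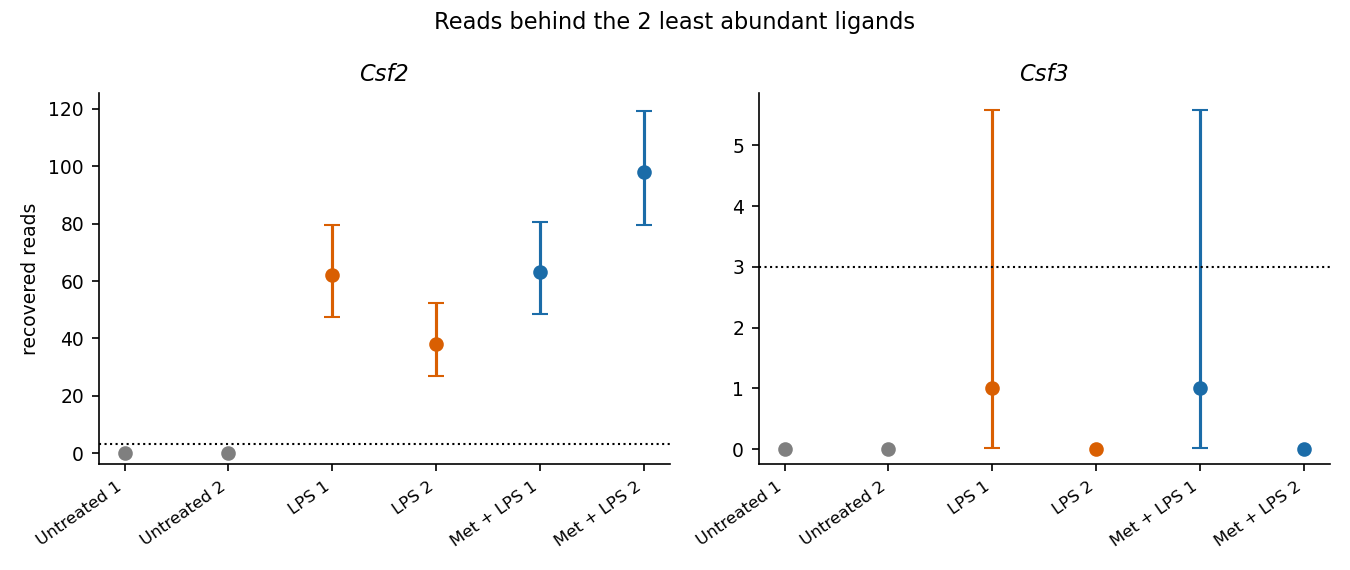
Reads recovered for Csf2 and Csf3 in each library (points) with exact 95% Poisson intervals (bars, for counts above 0); the dotted line marks the floor of 3 reads used for a count of 0, and the vertical axes differ. Csf2 had 38 to 98 reads in the 4 libraries with LPS and 0 in the untreated ones, and Csf3 had at most 1 read in any library.

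Among the receptors, Csf2rb and Csf2rb2 fell the most, and theirs were the falls that remained after rescaling. Csf2rb (ENSMUSG00000071713, chr15:78325752-78353847, plus strand), the common beta chain, went from 202 and 206 TPM to 108 and 103 TPM. Csf2rb2 (ENSMUSG00000071714, chr15:78282507-78305721, minus strand), the IL-3 receptor beta chain, went from 470 and 467 TPM to 275 and 267 TPM. The groups did not overlap for either gene. The log2 fold changes were -0.94 (SE 0.05, limma adjusted p = 3.4e-06) and -0.79 (SE 0.04, adjusted p = 3.6e-06), and after rescaling -0.42 (adjusted p = 1.9e-04) and -0.26 (adjusted p = 8.6e-04). Of all tested genes, 22.3% and 29.7% had a lower fold change, so neither stood at the edge of the distribution.

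Csf1r, Csf2ra and Csf3r fell in TPM by about as much as the median gene. Csf1r (ENSMUSG00000024621, chr18:61105572-61132149, plus strand), the receptor for CSF1, went from 1839 and 1943 TPM to 1343 and 1308 TPM. Its log2 fold change was -0.51 (SE 0.04, limma adjusted p = 4.0e-05) and 0.015 after rescaling (adjusted p = 0.772). Csf2ra (ENSMUSG00000059326, chr19:61224402-61228418, minus strand), the ligand-binding alpha chain for CSF2, went from 361 and 382 TPM to 243 and 270 TPM. That was a log2 fold change of -0.53 (SE 0.06, adjusted p = 1.2e-04), and -0.01 after rescaling (adjusted p = 0.926). Csf3r (ENSMUSG00000028859, chr4:126024550-126044440, plus strand), the receptor for CSF3, went from 44.7 and 44.9 TPM to 32.3 and 34.8 TPM. Its log2 fold change of -0.41 (SE 0.09, adjusted p = 0.00392) became 0.11 (adjusted p = 0.317) after rescaling, and its limma adjusted p was 0.0144 without the first untreated library, 0.0155 without the second and 0.0242 without the first LPS library. For Csf1r and Csf3r the direction of the LPS difference thus depends on the scaling, and Csf2ra no longer passed after rescaling, while Csf2rb and Csf2rb2 were lower and both ligands higher under either.

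**Figure D3:**
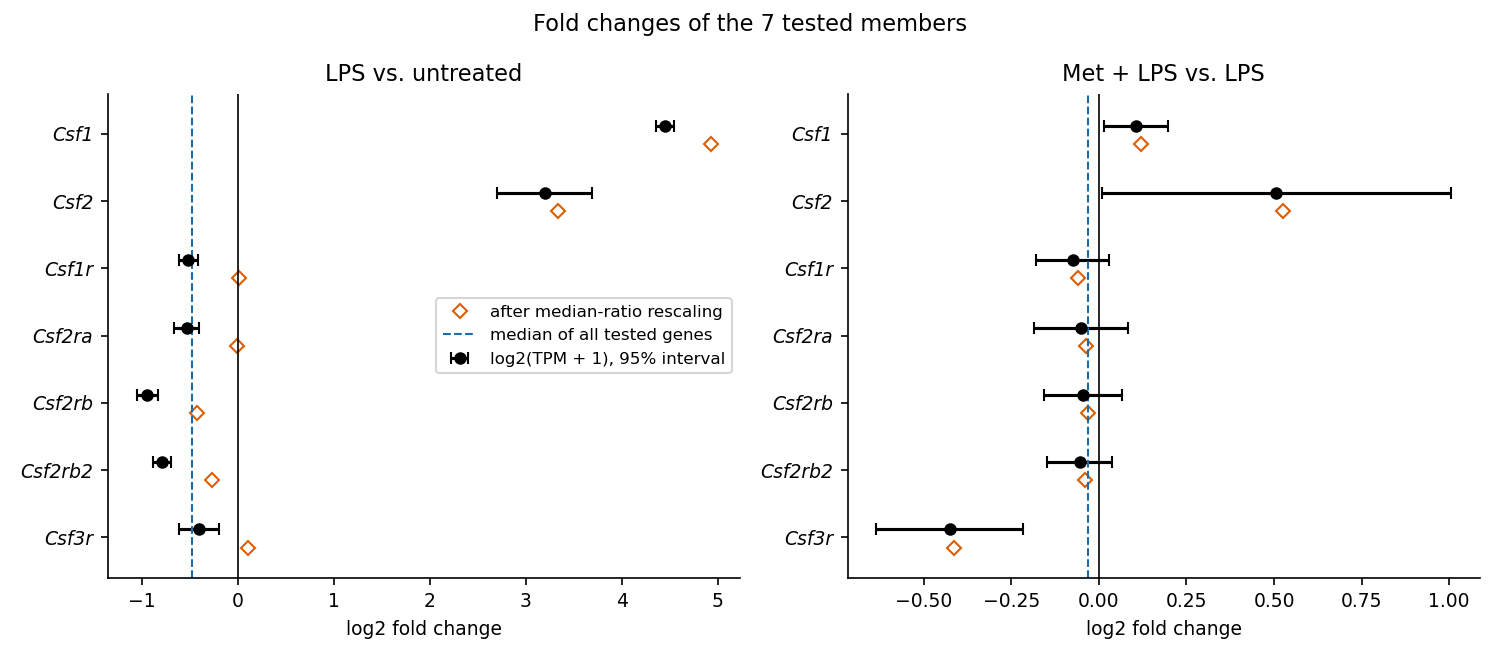
Log2 fold changes (horizontal axes, ranges differ) of the 7 tested members for LPS vs. untreated (left) and Met + LPS vs. LPS (right); black points with bars are limma estimates on log2(TPM + 1) with 95% confidence intervals, open diamonds the values after median-ratio rescaling, and the dashed line the median of all 12755 tested genes (-0.48 and -0.03). On the left Csf1r, Csf2ra and Csf3r sit near the dashed line and near 0 after rescaling, and on the right the interval of Csf3r lies wholly below 0.

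Ratios between members within 1 library do not depend on how libraries are scaled. The ratio of Csf2rb2 to Csf2rb was 2.32 and 2.27 in untreated cells, 2.54 and 2.58 after LPS, and 2.53 and 2.56 after Met + LPS. The summed beta chain genes over Csf2ra gave 1.86 and 1.76 without LPS, 1.57 and 1.37 with LPS, and 1.52 and 1.41 with Met + LPS. Both ratios separated untreated from LPS libraries without overlap, and both overlapped between LPS and Met + LPS. The ratio of Csf1r to Csf1, receptor over ligand, was 241 and 242 in untreated cells against 6.98 and 6.83 after LPS and 6.25 and 5.92 after Met + LPS. The absolute ratio of the beta chain genes rests on the exon lengths used for TPM (7277 bases for Csf2rb, which includes retained introns, and 4740 for Csf2rb2), but the order does not, since Csf2rb2 also had more reads (16950 against 11203 in the first untreated library).

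**Figure D4:**
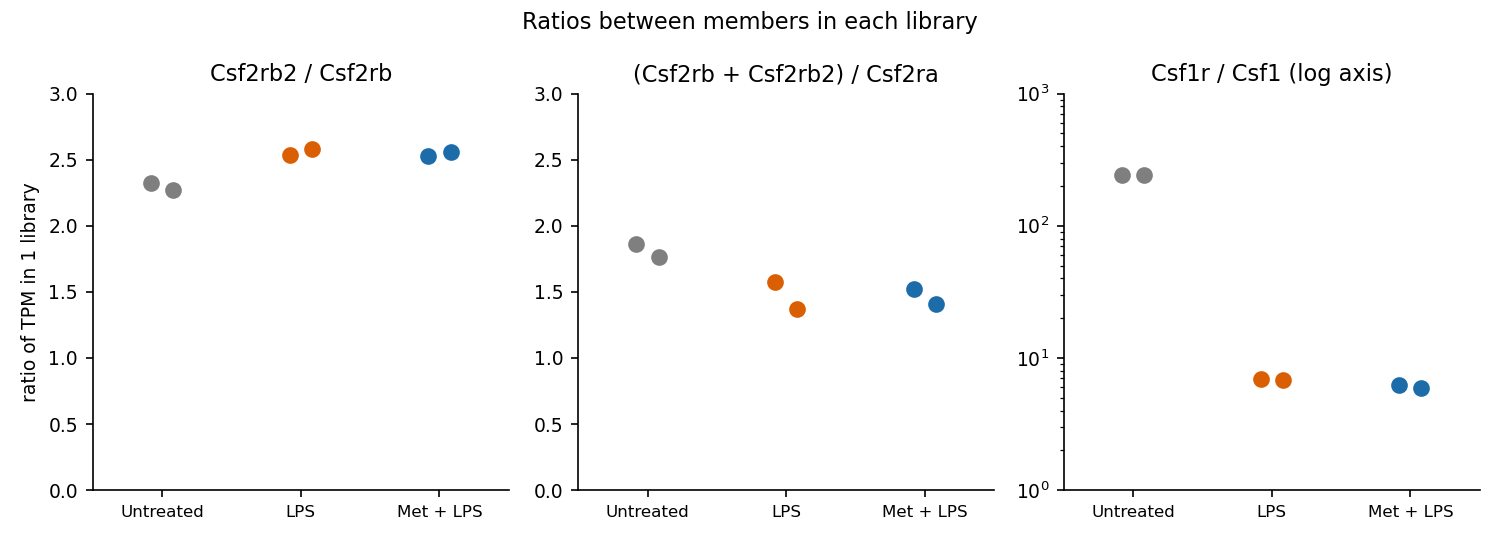
Ratios of TPM within each library (points) for Csf2rb2 over Csf2rb, both beta chain genes over Csf2ra, and Csf1r over Csf1 (log axis), by group. The first is higher and the other 2 are lower in the libraries with LPS, and the Met + LPS points lie close to the LPS points.

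The second comparison, Met + LPS vs. LPS, addresses what metformin pretreatment changed. None of the 7 tested members passed an adjusted p under 0.01 together with a log2 fold change of 0.7 or more in size, beside 8.28% of all tested genes (4.19% higher and 4.09% lower). At any fold change, Csf3r alone passed, as lower, beside 18% of tested genes that passed as lower, 14.5% as higher and 32.6% in either direction. By limma 3 members had an unadjusted p under 0.05 (Csf1, Csf2 and Csf3r), and no member passed both cut-offs with voom on the recovered reads. The median of all tested genes was -0.03, so scaling matters little here.

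Csf3r read 32.3 and 34.8 TPM after LPS and 27.1 and 22.5 TPM after Met + LPS. The groups did not overlap, and the 2 Met + LPS libraries differed from each other more than the 2 LPS libraries did. The log2 fold change was -0.43 (SE 0.09, 95% confidence interval -0.63 to -0.22, limma adjusted p = 0.00732), and 13.4% of tested genes had a lower one. The estimate after rescaling was -0.41 (adjusted p = 0.00887) and from voom -0.45 (adjusted p = 3.5e-05). The call was lost without the first LPS library (adjusted p = 0.0182), the second LPS library (0.0406) or the second Met + LPS library (0.0148), and with the replicate number as a block (0.0121). The summed neutrophil markers were 26.7 to 28.2 TPM after LPS and 43.6 to 45.9 TPM after Met + LPS, higher where Csf3r was lower. None of the 5 tested neutrophil markers passed, while 6 of the 8 macrophage markers passed as lower (median log2 fold change -0.34). The part of either list in the Csf3r result was not tested.

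Csf2 read 10.2 and 6.51 TPM after LPS and 10.4 and 13.8 TPM after Met + LPS. Both Met + LPS libraries lay above both LPS libraries, but the first of each differed by 1 read (62 and 63). The log2 fold change of 0.51 (SE 0.21, 95% confidence interval 0.01 to 1.01, limma adjusted p = 0.0870) did not pass. It was 0.22 without the second LPS library and 0.79 without the first. With voom on the reads it was 0.56 (adjusted p = 0.0418). Against the untreated floor of 3 reads per library, the mean of the Met + LPS libraries was at least 23.9-fold higher.

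Csf1 was 192 TPM in both LPS libraries and 207 TPM in both Met + LPS libraries. The difference was small beside the response to LPS, with a log2 fold change of 0.11 (SE 0.04, 95% confidence interval 0.02 to 0.20, limma adjusted p = 0.0564). Csf1r (1343 and 1308 against 1293 and 1224 TPM), Csf2ra (243 and 270 against 246 and 250 TPM), Csf2rb (108 and 103 against 106 and 98.8 TPM) and Csf2rb2 (275 and 267 against 269 and 253 TPM) did not pass. Their log2 fold changes were -0.07 (95% confidence interval -0.18 to 0.03), -0.05 (-0.18 to 0.08), -0.04 (-0.16 to 0.07) and -0.05 (-0.15 to 0.04). The intervals leave out a change of the size of the cut-off (0.7) in either direction for these 5 genes, whereas that of Csf2 does not. They cover only the spread between these samples, which may be technical, and not that between independent cultures or mice.

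The third comparison, Met + LPS vs. untreated, shares libraries with both others, so its values are set beside them without a test of likeness. The same cut-offs as for LPS were passed by Csf1 (log2 fold change 4.56, SE 0.04) and Csf2 (3.70, SE 0.21). Of all tested genes, 5.35% passed in either direction, 3.18% as higher and 2.16% as lower. Csf2 again passed the filter only through libraries with LPS, so its call follows in part from being tested. Its log2 fold change was 6.92 with a pseudocount of 0.1 and 7.19 with voom. At any fold change 7 members passed, 2 higher and 5 lower, beside 75.1% of tested genes (16.3% higher and 58.8% lower). The receptors gave -0.59 for Csf1r, -0.58 for Csf2ra, -0.99 for Csf2rb, -0.84 for Csf2rb2 and -0.83 for Csf3r, against a median of -0.48. After rescaling, Csf2rb (-0.45, adjusted p = 1.2e-04) and Csf2rb2 (-0.30, adjusted p = 3.9e-04) passed, Csf3r was at -0.31 (adjusted p = 0.0175), and Csf1r (-0.05) and Csf2ra (-0.04) lay near 0.

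Growth factor genes related to the CSF system were followed as a list of 9, of which Kit, Kitl, Flt3l and Il3ra were tested and Il3, Il5, Il5ra, Il34 and Flt3 were too low. After LPS, 4 of 4 fell, with a median of -0.80. Of all tested genes, 60.1% passed as lower, and their median was -0.48. After rescaling only Kit and Kitl passed as lower, beside 27.6% of all tested genes. Kit, the stem cell factor receptor and a relative of Csf1r, went from 19.6 ± 0.149 to 7.96 ± 0.0563 TPM after LPS (log2 fold change -1.20, SE 0.05, limma adjusted p = 2.1e-06). In Met + LPS cells Kit was at 23.6 ± 0.881 TPM, a log2 fold change of 1.45 over LPS (SE 0.05, adjusted p = 1.1e-05). Kitl, which encodes stem cell factor, followed with -0.78 after LPS and 0.55 with metformin, both past the adjusted p of 0.01. Flt3l (-0.82) and Il3ra (-0.55), the alpha chain that pairs with both beta chains, were lower after LPS and did not pass between Met + LPS and LPS (0.24 and -0.12).

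Genes that carry or restrain CSF receptor signals inside the cell, here called signal transducers, formed a list of 21, of which 20 were tested (Socs2 was too low). After LPS 10 were higher and 10 lower, with a median of -0.04 (all tested genes: 16.2% higher, 60.1% lower, median -0.48). Past the cut-off of 2, 5 were higher and 0 lower, beside 3.72% and 2.37% of all tested genes. The 5 were Socs3 (8.77), Cish (5.42), Jak2 (4.26), Src (4.15) and Stat5a (3.70). Cish was at 0.128 TPM in untreated cells and passed the filter on low values only through the libraries with LPS. That it differed follows in part from being tested, and its fold change depends on the pseudocount (8.53 with voom). JAK2 and STAT5A relay the signal of the CSF2 receptor, SRC is a kinase recruited to active receptors, and SOCS3 and CISH are feedback inhibitors of the JAK-STAT pathway. Socs3 read 2.94 ± 0.340 TPM in untreated cells and 1714 ± 108 TPM after LPS. Under rescaling 10 were higher and 2 lower (Inpp5d and Grb2), beside 30.6% and 27.6% of all tested genes. The 8 other falls thus depended on the scaling.

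With metformin, 13 of the 20 signal transducers were lower than with LPS alone and 3 higher, with a median of -0.48, beside 18% lower, 14.5% higher and a median of -0.03 over all tested genes. The 13 included the feedback inhibitors Socs3 (-0.65) and Cish, so the count gives no direction for the signal itself. In the same comparison 6 of the 8 macrophage markers passed as lower (median -0.34), and their part in the result was not tested. Past the cut-off of 0.7, 5 signal transducers were lower and 1 was higher, beside 4.09% and 4.19% of all tested genes. The lower ones included Fgr (-1.09), a Src family kinase, Cish (-1.01), Pik3cd (-1.01), the catalytic subunit of a phosphoinositide 3-kinase, and Stat5a (-0.92). Stat5a read 18.5 ± 0.162, 252 ± 9.41 and 133 ± 1.31 TPM in untreated, LPS and Met + LPS cells, and Cish read 0.128 ± 0.0651, 47.2 ± 0.343 and 22.9 ± 1.67 TPM. Both stayed well above the untreated level. After rescaling, 12 of the signal transducers were lower and 3 higher, beside 17.4% and 15.6% of all tested genes.

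A list of 9 genes tied to Csf1r held the protease and cofactor that shed receptors from the surface, and transcription factors linked to Csf1r or its signal. Whether each factor acts at the Csf1r locus was not tested. After LPS, 7 rose and 2 fell (median 0.75), beside 16.2% higher and 60.1% lower over all tested genes. The counts after rescaling were also 7 and 2, beside 30.6% and 27.6%. Rhbdf2, which escorts the sheddase ADAM17, went from 39.9 ± 0.0142 to 198 ± 7.49 TPM (log2 fold change 2.29, SE 0.04, limma adjusted p = 3.0e-08). Mitf (2.31) and Ets2 (2.02), both transcription factors, passed the cut-off as higher, and Cebpa, a myeloid transcription factor, as lower (-3.72). Cebpa read 119 ± 6.02 TPM without LPS and 8.17 ± 1.34 TPM with it. In Met + LPS cells Cebpa (1.17) and Ets2 (0.72) were higher than in LPS cells, and Irf8 (-0.87) and Spi1 (-0.53), which encodes PU.1, were lower. In that comparison 2 of the 9 passed as higher and 3 as lower, beside 14.5% and 18% of all tested genes. After rescaling 2 and 2 passed, beside 15.6% and 17.4%.

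The last list held 7 genes whose products act on AU-rich or other unstable cytokine messages such as that of Csf2. After LPS, Zc3h12a (log2 fold change 3.35), which encodes an endonuclease, and Zfp36 (2.15), which encodes the decay factor tristetraprolin, rose, while its relatives Zfp36l2 (-4.14) and Zfp36l1 (-3.08) fell. Counted at any fold change, 3 were higher and 3 lower, beside 16.2% and 60.1% of all tested genes. The median was 0.08, against -0.48 for all tested genes. After rescaling 4 were higher and 2 lower, beside 30.6% and 27.6% of all tested genes. Zfp36l2 went from 263 ± 0.836 to 13.9 ± 0.335 TPM and stood at 44.5 ± 3.32 TPM in Met + LPS cells. Relative to LPS alone, Met + LPS gave 1.61 for Zfp36l2, 0.22 for Zc3h12a and -0.68 for Zfp36, all past the adjusted p of 0.01. The other 4 did not pass. Over all tested genes, 14.5% passed as higher and 18% as lower.

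**Figure D5:**
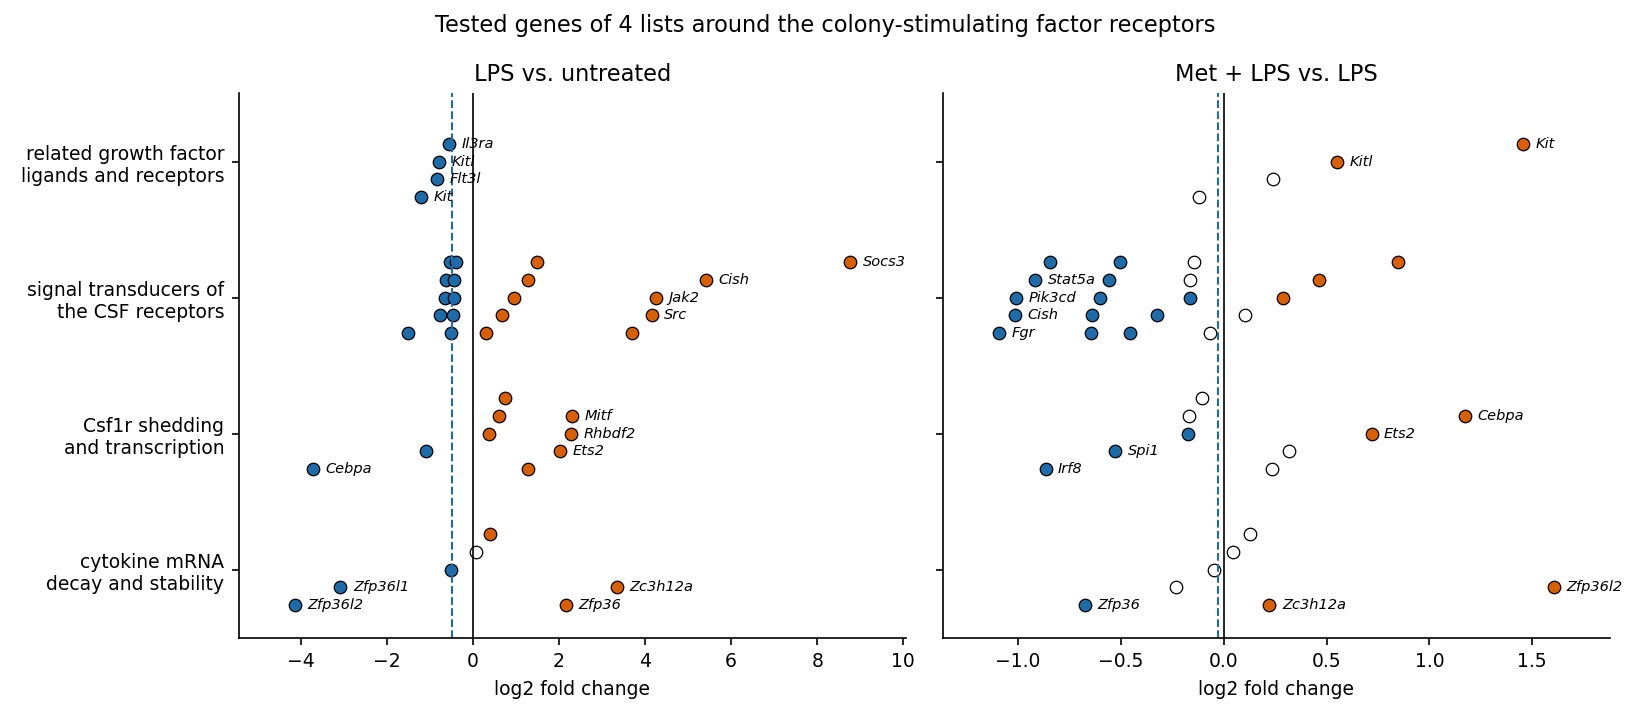
Log2 fold changes (horizontal axes, ranges differ) of the tested genes in 4 lists, for LPS vs. untreated (left) and Met + LPS vs. LPS (right); each point is a gene, orange where higher and blue where lower with an adjusted p under 0.01, white otherwise, with up to 4 genes named per list and the dashed line at the median of all tested genes. On the right most signal transducers lie left of 0, 13 of 20 in blue.

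For each tested member the genes with the most similar profile were named by the Euclidean distance between centred log2(TPM + 1) values over the 6 libraries. For Csf1 these were Cav1 (distance 0.172), Gm6377 (0.298) and Dusp1 (0.306). Cav1 went from a mean of 10.2 TPM to 265 and 260 TPM in LPS and Met + LPS cells. For Csf2 the distances were larger, with Gm18445 (0.543), Bcl2a1b (0.572) and Gm17334 (0.581). Csf1r had Mtor (0.0237), Nfs1 and Numb, Csf2ra had Scamp3 (0.0593), Nipa1 and Get4, Csf2rb had Pnpla7 (0.0436), Tmem177 and Trrap, and Csf2rb2 had Tug1 (0.0338), Dync1li2 and Mtr. Csf3r was nearest to Zdhhc4 (0.112), Dock8 and Tnfrsf12a. Those 3 had their lowest mean TPM in Met + LPS cells, which follows from picking them by likeness over the same 6 libraries.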

How the data were processed

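Poly-A RNA of 6 libraries (3 groups of 2, grouped by the GEO labels) was sequenced after preparation with the Illumina TruSeq kit. The submitters' processing notes name STAR 2.6.1d, SAMtools 1.9 and featureCounts of Subread 1.6.3, on GRCm38. The authors deposited 1 table of TPM values (transcript abundances scaled for gene length and to a sum of 1000000 per library), and this is the unit used here. Multiplied by GENCODE M21 exon lengths (54495 of 54532 genes), 96.1% to 96.3% of values above 0 were whole reads within 0.02, which gave the depth of 25457016 to 30762754 reads. Reads are not given for Csf1r and Csf2ra, whose annotated bounds differ between releases.

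The study's authors tested counts, but the deposited unit is TPM, so log2(TPM + 1) was fitted with limma 3.58.1 (R 4.3.3; all 6 libraries, eBayes with a trend, Benjamini-Hochberg over all 12755 tested genes), after a filter of at least 1 TPM in at least 2 libraries. Cut-offs were an adjusted p under 0.01 and an absolute log2 fold change of 2, or 0.7 for Met + LPS vs. LPS. The script was tested on simulated data. Alternatives were a pseudocount of 0.1, other filters, median-ratio rescaling, compared groups only, a replicate block, eBayes without a trend, voom on recovered reads, and leaving out each library. Named genes were the 8 members, up to 4 genes per list and comparison with the largest absolute fold change past the adjusted p, the 3 nearest profiles per tested member, and genes tied to a count. Stat5a among the LPS-induced transducers, Inpp5d and Grb2 were named after their values were seen. Members and lists were chosen with earlier results of these data known. Sequences came from RefSeq promoter tables (GRCm38.p6) and GENCODE M21 transcripts, aligned with Biopython 1.88. Replicates of a group differed beyond sampling noise (chi-square per degree of freedom of 1.88 to 3.51).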

Additional observations from a re-analysis of the deposited data

How the results depend on the processing

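Under every alternative run, 2 members passed the cut-offs in each comparison with untreated cells and 0 did for Met + LPS vs. LPS. In the main fit the 2 were Csf1 and Csf2, and Csf2 passed the filter only through libraries with LPS. That Csf2 passed follows in part from being tested. At any fold change, the 7 members that passed in each comparison with untreated cells became 4 under median-ratio rescaling. The 1 member that passed for Met + LPS vs. LPS (Csf3r) became 0 with no filter (adjusted p = 0.0340), in the compared groups only (0.0304), with eBayes without a trend (0.0221) and under the replicate block (0.0121), and ranged from 0 to 1 when single libraries were left out. The call of Csf3r for LPS vs. untreated was also lost with no filter (0.0182) and without a trend (0.0124). The cause was not tested. Whether the replicate numbers pair the samples is not stated. Correlations of their deviations between groups were -0.00, 0.03 and 0.01, so no shared shift was seen across the tested genes. The block changed no other member's call.

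Values that changed sign were Csf1r and Csf3r for LPS vs. untreated under rescaling (0.015 and 0.11). For Met + LPS vs. LPS, values with single libraries left out ranged from -0.13 to 0.025 for Csf2ra (without the first and second LPS library) and from -0.096 to 0.0058 for Csf2rb (without the first and second Met + LPS library). The number of all tested genes past the cut-offs for LPS vs. untreated went from 776 to 1512 with a pseudocount of 0.1, 1596 with voom and 3556 with a cut-off of 1. For Met + LPS vs. untreated it went from 682 to 1457, 1564 and 3714, and for Met + LPS vs. LPS from 1056 to 455 with a cut-off of 1. Depth limits Csf2 and Csf3, and 2 libraries per group leave 3 residual degrees of freedom.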
